A study of Mus musculus with 3 samples.

Results

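Orexin nuclei are described here: single nuclei of the mouse brain that carry the transcript of Hcrt, the gene for the precursor of the orexin (hypocretin) peptides, at a high level. They were taken from 3 libraries of single-nucleus RNA sequencing (10x Genomics, a droplet method that tags each transcript with a molecular barcode, the UMI, and each nucleus with a cell barcode). The libraries came from uninjured C57BL/6 mice, each from a separate biological replicate per the labels. Brain neurons had been labelled by a tracer taken up in the lumbar cord, the tissue was micro-dissected under fluorescence, and nuclei were sorted by flow cytometry. The study has a single group, so there was no treatment to compare, and the labels used here give no age or sex, do not say how many mice each library holds, and do not describe the tracer.

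A barcode was counted as an orexin nucleus where Hcrt stood at 1000 CPM or more (counts per 1000000, the UMIs of a gene per 1000000 UMIs of that nucleus) and where Plagl1, Ros1 and Rfx2 together had at least 2 UMIs. The members were thus chosen by their own measured levels of these 4 genes. Barcodes with fewer than 1000 genes, or with mitochondrial UMIs above 5%, were left out beforehand. This gave 66 orexin nuclei among 9027 barcodes, with 24 of 2679 in replicate 1, 27 of 2769 in replicate 2 and 15 of 3579 in replicate 3. In replicate 1 the share was 0.896%, with a 95% exact Clopper-Pearson interval of 0.575% to 1.33%. In replicate 2 it was 0.975%, with an interval of 0.644% to 1.42%. Replicate 3 had the lowest share, 0.419%, with an interval of 0.235% to 0.690%, and the mean over libraries was 0.763% ± 0.301 (SD, n = 3 libraries). These intervals cover counting error only, and the part of the dissection and the sort in them was not tested. The other 8961 barcodes within the limits are called the other nuclei.

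As background, orexin neurons lie in the lateral hypothalamus and send axons through most of the brain and down the length of the spinal cord. Their 2 peptides are cut from 1 precursor, packed in dense-core vesicles and released together with glutamate, and they act on the receptors Hcrtr1 and Hcrtr2. The cells are known for keeping animals awake, and their loss causes narcolepsy with cataplexy. They are also known to respond to hormones, glucose and other peptides, and to raise sympathetic outflow, feeding and arousal together.

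The promoters of 3 genes that lead the account are shown to give the sequence context of the peptide gene that defines these nuclei and of Nnat and Scg2, abundant transcripts in them. Each runs from 250 bases before the start of the gene to 50 after it, in the RefSeq table of build GRCm38.p6 (mm10). Hcrt lies on the minus strand of chromosome 11 (chr11:100762882-100763181), Nnat on the plus strand of chromosome 2 (chr2:157559828-157560127) and Scg2 on the minus strand of chromosome 1 (chr1:79439977-79440276). Capitals mark matches to the TATA box letters TATAAA and to the cAMP response element letters TGACGTCA, searched on both strands.
Hcrt: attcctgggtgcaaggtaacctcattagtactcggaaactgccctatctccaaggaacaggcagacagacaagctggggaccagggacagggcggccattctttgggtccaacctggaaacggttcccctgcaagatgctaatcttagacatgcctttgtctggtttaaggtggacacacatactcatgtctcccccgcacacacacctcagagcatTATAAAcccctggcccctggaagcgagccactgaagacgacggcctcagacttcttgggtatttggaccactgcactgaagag
Nnat: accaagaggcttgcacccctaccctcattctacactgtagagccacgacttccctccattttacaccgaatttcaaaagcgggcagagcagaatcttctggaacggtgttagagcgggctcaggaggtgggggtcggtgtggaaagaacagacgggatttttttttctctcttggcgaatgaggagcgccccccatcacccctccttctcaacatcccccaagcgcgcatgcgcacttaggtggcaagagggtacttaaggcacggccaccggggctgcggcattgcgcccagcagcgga
Scg2: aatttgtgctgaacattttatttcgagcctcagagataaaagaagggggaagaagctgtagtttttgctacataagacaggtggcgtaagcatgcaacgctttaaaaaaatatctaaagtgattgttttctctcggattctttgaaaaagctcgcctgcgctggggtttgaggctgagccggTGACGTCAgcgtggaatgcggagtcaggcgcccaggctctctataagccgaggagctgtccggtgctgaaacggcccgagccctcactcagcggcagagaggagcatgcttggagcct
The Hcrt window held TATAAA from 33 to 28 bases before the start, and the Scg2 window held TGACGTCA from 68 to 61 bases before it. The Nnat window held neither. Of 32851 windows of the same length, 4473 (13.6%) held TATAAA and 588 (1.79%) held TGACGTCA. A match describes the letters and not the use of a site.

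The orexin nuclei were shallower than the rest of their libraries. Their median was 6007, 14883 and 8865 UMIs in replicates 1, 2 and 3, against 8304, 19574.5 and 14400 UMIs in the other nuclei, and summed per library they held 170856, 385951 and 167650 UMIs. Replicate 2 therefore carried more than the other 2 libraries together. The median number of genes was 2670.5, 5114 and 3729 in orexin nuclei, against 3173, 5342 and 4417.5 in the other nuclei. With every nucleus thinned to 3000 UMIs the order turned, to 1593, 1719 and 1706 genes in orexin nuclei, against 1560, 1582 and 1582 in the other nuclei. No cell barcode of an orexin nucleus occurred in another library, and over all deposited barcodes 10, 2 and 8 were shared by the 3 pairs of libraries. The doublet caller Scrublet marked 1 orexin nucleus, in replicate 2.

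The genes that chose the nuclei are given as a description only. Hcrt reached 3828, 2599 and 3704 CPM over the summed orexin nuclei of replicates 1, 2 and 3, against 68.3, 95.4 and 29.6 CPM in the other nuclei. Plagl1, an imprinted gene for a zinc finger factor, stood at 298, 306 and 364 CPM in orexin nuclei, against 4.11, 3.34 and 2.84 CPM in the other nuclei. Ros1, a receptor tyrosine kinase, stood at 222, 168 and 167 CPM in orexin nuclei, against 2.35, 1.98 and 1.25 CPM in the other nuclei. Rfx2, a winged-helix factor of the regulatory factor X family, stood at 152, 88.1 and 143 CPM in orexin nuclei, against 1.32, 1.18 and 1.08 CPM in the other nuclei. The groups lay far apart for all 4 genes in each library, which the rule fixes. Of the 66 nuclei, 62 had a Plagl1 UMI, 52 a Ros1 UMI and 39 an Rfx2 UMI.

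Around the limits the barcodes were few on the Hcrt axis and many on the other. The 3 lowest orexin nuclei stood at 1010, 1013 and 1109 CPM of Hcrt, and the 3 highest barcodes that met the second condition but not the Hcrt limit at 910, 906 and 810 CPM. Between 1000 and 1500 CPM there were 8 orexin nuclei, and at 500 CPM or more below the limit there were 8 barcodes. In all, 130 barcodes met the second condition alone, with a median of 73.4 CPM of Hcrt. By contrast, 74 barcodes passed the Hcrt limit without the second condition, 62 of them with no UMI of the 3 genes and 12 with 1, at a median depth of 2365 UMIs and 3 Hcrt UMIs. These stayed among the other nuclei, and the deepest in Hcrt held 49 Hcrt UMIs. In the orexin nuclei the median was 32.5 Hcrt UMIs (range 8 to 94) and 5 UMIs of the 3 genes, and 9 nuclei had exactly 2.

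**Figure D1:**
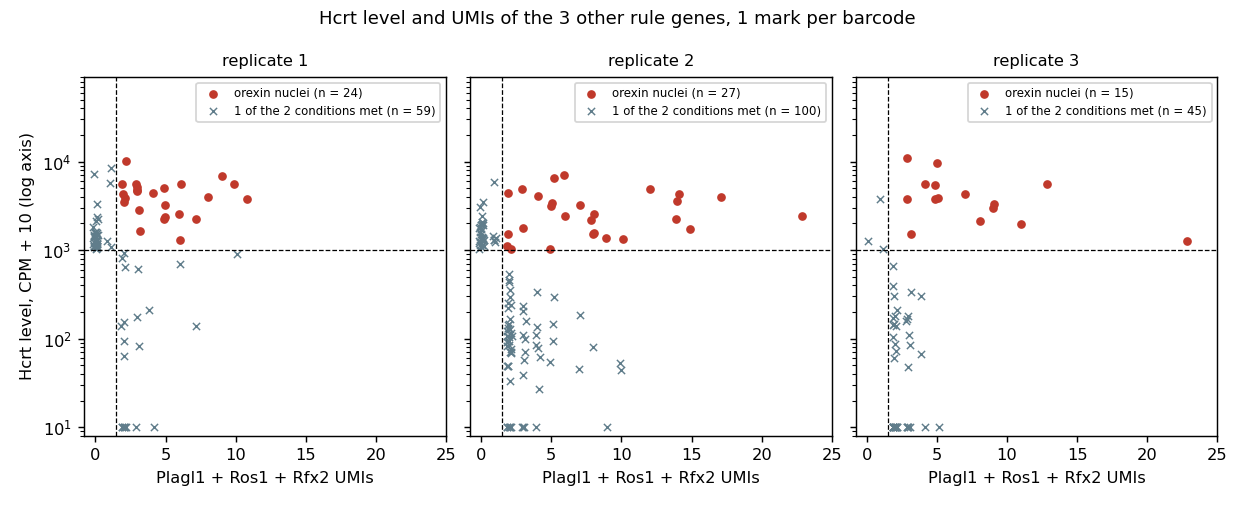
Hcrt level in CPM plus 10 (log axis) against the summed UMIs of Plagl1, Ros1 and Rfx2, with a panel for each library and 1 mark for each barcode that met at least 1 of the 2 conditions. Dashed lines are the limits of 1000 CPM and 2 UMIs. The 66 orexin nuclei fill the upper right, and 74 barcodes above the Hcrt limit have 0 or 1 UMI of the other genes.

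Hcrt molecules were not confined to orexin nuclei. Of the other nuclei, 40.5%, 83.9% and 35.2% had an Hcrt UMI in replicates 1, 2 and 3. Cortical nuclei, taken as those with Nfib at 300 CPM or more and at least 2 Bcl11b UMIs, should lack the gene, yet 41.6%, 90.9% and 35.7% of them had a UMI, at 32.7, 77.3 and 19.9 CPM and at median depths of 15801, 30450.5 and 21837 UMIs. The shares were highest in replicate 2 in both groups. Thinned to 3000 UMIs, 100%, 96.3% and 100% of the orexin nuclei had an Hcrt UMI, against 9.59%, 21.1% and 6.76% of the cortical nuclei. Levels of Hcrt below the limit were therefore treated as free RNA. The orexin nuclei held 25.9%, 7.38% and 25.4% of all Hcrt UMIs among the deposited barcodes of replicates 1, 2 and 3.

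Markers of other cell types were low in the orexin nuclei, and some lists were scarce in the other nuclei too. All 5 markers of the red nucleus, Pou4f1 among them, were at 0 UMIs. Sim1 and Otp, factors of the paraventricular nucleus, were at 0 UMIs, as were Slc32a1, the vesicular GABA transporter, Tph2, the serotonin enzyme, Hdc, the histamine enzyme, and Aqp4, an astrocyte channel. No UMI in 724457 allows a level of up to 4.14 CPM. Pmch, the precursor of melanin-concentrating hormone in the neighbouring cells of the lateral hypothalamus, had 5 UMIs in all, at 11.7, 7.77 and 0 CPM, against 2.83, 4.47 and 0.996 CPM in the other nuclei, and Cartpt had 1 UMI. The 10 corticospinal markers summed to 234, 443 and 441 CPM in orexin nuclei, against 1344, 1684 and 1684 CPM in the other nuclei, and none was at 0. Whether their part in the orexin nuclei is free RNA was not tested. The 8 markers of hypothalamic GABA neurons summed to 35.1, 46.6 and 35.8 CPM in orexin nuclei, against 326, 269.8 and 291 CPM in the other nuclei, with 5 at 0. The sums of the other neuronal lists were small in orexin nuclei, with 51.8 to 70.2 CPM for the paraventricular, 5.96 to 18.1 CPM for the melanin-concentrating hormone, 5.85 to 13.0 CPM for the hindbrain and 5.85 to 20.7 CPM for the monoaminergic markers. In the other nuclei they were, in the same order, 73.0 to 112 CPM, 14.9 to 20.1 CPM, 27.5 to 33.4 CPM and 20.2 to 31.3 CPM. The ranges of the melanin-concentrating hormone and monoaminergic markers overlapped. The 7 astrocyte markers summed to 5.85, 10.4 and 11.9 CPM in orexin nuclei, against 86.7, 98.3 and 99.1 CPM in the other nuclei. The orexin sums of astrocyte markers were thus below those of the other nuclei in each library, while the endothelial sums overlapped. The 6 endothelial markers summed to 58.5, 82.9 and 23.9 CPM in orexin nuclei, against 58.8, 55.8 and 69.6 CPM in the other nuclei, with 4 of them at 0, and Pecam1 passed the test in the comparison described next (log2 fold change 1.62) but not without replicate 2 (0.54). The 6 microglial markers summed to 46.8, 80.3 and 35.8 CPM in orexin nuclei, against 75.1, 84.5 and 86.3 CPM in the other nuclei, with 2 at 0. The 7 oligodendrocyte markers summed to 23.4, 54.4 and 47.7 CPM in orexin nuclei, against 50.5, 54.0 and 60.9 CPM in the other nuclei, with 3 at 0. The part of these cells in the results was not tested.

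Comparing orexin nuclei with the other nuclei asked which genes set this hypothalamic type apart from the mixture of labelled nuclei in the same libraries. UMIs were summed per library over each group, which gave 6 sums, and were tested with edgeR's quasi-likelihood test with library as a block. A call needed both a log2 fold change of at least 1 in size and a p below 0.05 after Benjamini-Hochberg adjustment across the whole table. Of 9687 genes with a mean of at least 10 CPM over the sums, 744 were higher in orexin nuclei (7.68%) and 996 were lower (10.3%). The filter let a gene in through the group where it is high, so a gene scarce in the other nuclei could be called in 1 direction only. Of the 744 higher genes (Nnat and Stac among them), 288 had a mean under 10 CPM in the other nuclei, and 227 of these were also called with no filter on low counts. Of the 996 lower genes, 247 had a mean under 10 CPM in orexin nuclei. Among the genes named in this text, 28 of the 64 higher ones had such a low mean in the other nuclei, and 26 of the 28 were also called with no filter, the exceptions being Adcyap1r1 and Pecam1. The p of such a gene is no support for the direction. Genes of this kind with a p printed below include Slc25a48, Calb1, Nek7, Fgf10, Pcsk6, Trhr and Lhx9. Nptx2, Rab3b, Kcnk13, Trpc7, Ntn1, Gabrg1 and Lhx2 are also of this kind. Syt2, a lower gene, passed the filter through the other nuclei alone. The reference is a mixture of types, and 3371 of its 8961 nuclei were cortical by the markers above. Fold changes are therefore relative to that mixture. Without replicate 2, 510 genes were higher and 765 lower. Counts of the gene lists below stand beside the shares over all tested genes, 7.68% higher and 10.3% lower. A count near these shares is no result about its list.

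Nnat and Stac had been picked as markers of these nuclei with results of these data known, so their levels stand without a test. Nnat, an imprinted gene for a small membrane protein of neurons and endocrine cells, reached 2587, 2446 and 2917 CPM in orexin nuclei, against 39.0, 39.3 and 35.3 CPM in the other nuclei. It lies within Blcap on the opposite strand, and reads of the pair could be shared if counting did not use strand, which is not stated. Stac, an adaptor protein with an SH3 domain, stood at 304, 220.2 and 328 CPM in orexin nuclei, against 8.48, 4.66 and 5.71 CPM in the other nuclei. The libraries of the groups did not overlap for either gene. Of the 66 orexin nuclei, 65 had a Nnat UMI and 49 a Stac UMI.

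The genes with the largest fitted rises were mostly rare elsewhere. Slc25a48, Calb1, Nek7, Fgf10 and Pcsk6 passed the filter through their orexin levels alone, so their p is no support for the direction. Slc25a48, of the mitochondrial carrier family, stood at 76.1, 215 and 77.5 CPM in orexin nuclei, against 1.62, 1.44 and 0.548 CPM in the other nuclei (log2 fold change 6.49 ± 0.45, adjusted p = 3.14e-10). Calb1, the calcium buffer calbindin, stood at 81.9, 38.9 and 83.5 CPM in orexin nuclei, against 1.58, 0.735 and 1.63 CPM in the other nuclei (log2 fold change 5.48 ± 0.45, adjusted p = 3.49e-09). Both had every orexin sum above every sum of the other nuclei. Nek7, a kinase of the NimA family, was at 158, 150.3 and 185 CPM in orexin nuclei, against 5.80, 3.63 and 4.80 CPM in the other nuclei (log2 fold change 4.94 ± 0.30, adjusted p = 3.76e-11). Fgf10, a secreted growth factor, was at 76.1, 46.6 and 77.5 CPM in orexin nuclei, against 2.35, 1.94 and 1.66 CPM in the other nuclei (log2 fold change 4.81 ± 0.44, adjusted p = 1.82e-08). Pcsk6, a proprotein convertase of the secretory pathway, was at 99.5, 95.9 and 101 CPM in orexin nuclei, against 5.36, 2.93 and 3.32 CPM in the other nuclei (log2 fold change 4.53 ± 0.36, adjusted p = 2.42e-09). The remaining leading names were Trhr, Lhx9 and Rfx4, described below, with Tmbim7 (log2 fold change 5.82), Arhgap28 (5.26, and 4.65 without replicate 3), Csta2 (4.97) and the noncoding Sox1ot (4.71). Tmbim7 overlaps Gatad1 and Sox1ot overlaps Sox1 in the annotation, so their reads are uncertain. Predicted genes made up 118 of the 744 higher and 118 of the 996 lower names.

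Among the largest falls, 4 genes had 2 or 3 UMIs in all orexin nuclei, every one of them from replicate 2. Their ratios carry counting intervals for that reason. Trhde, the ectoenzyme that degrades thyrotropin-releasing hormone, had 2 UMIs, and its level was 22.6-fold lower than in the other nuclei (95% counting interval 6.26 to 187). Reln, the extracellular protein reelin, had 3 UMIs, and its level was 20.3-fold lower than in the other nuclei (6.93 to 98.2). Htr4, a serotonin receptor, and Boc, a co-receptor of hedgehog signals, had 2 UMIs each. Epha6, an ephrin receptor, stood at 5.85, 44.0 and 35.8 CPM in orexin nuclei, against 654, 500.4 and 608 CPM in the other nuclei (log2 fold change -4.35 ± 0.28, adjusted p = 9.11e-11, and -5.13 without replicate 2). Slit2, a repulsive guidance cue, stood at 11.7, 36.3 and 5.96 CPM in orexin nuclei, against 441, 359 and 429 CPM in the other nuclei (log2 fold change -4.35 ± 0.30, adjusted p = 2.66e-10, and -5.82 without replicate 2). Meis2, a homeodomain factor, stood at 17.6, 23.3 and 11.9 CPM in orexin nuclei, against 319, 265 and 285 CPM in the other nuclei (log2 fold change -4.11 ± 0.28, adjusted p = 1.70e-10). Each of these 3 was below every sum of the other nuclei in each library. Tafa2, Nxph1 and Necab1 completed the 10 largest falls with 9, 6 and 4 UMIs in the orexin nuclei, and all 4 UMIs of Necab1 were in replicate 2.

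Genes of peptide production were among those higher in orexin nuclei. Of 24 listed genes of peptide processing and dense-core vesicles, 22 were tested, 7 were higher and 1 was lower, with a median log2 fold change of 0.32 beside 0.02 over all tested genes. Pam, the enzyme that amidates peptide ends and so acts on both orexins, stood at 1686, 1067 and 1557 CPM in orexin nuclei, against 149, 96.4 and 127 CPM in the other nuclei (log2 fold change 3.31 ± 0.15, adjusted p = 6.08e-13). Pcsk1, the convertase that cuts prohormones, stood at 211, 269 and 328 CPM in orexin nuclei, against 30.3, 32.7 and 48.3 CPM in the other nuclei (log2 fold change 2.66 ± 0.18, adjusted p = 1.70e-10). Scg2, the granin secretogranin II of dense-core vesicles, stood at 550.2, 604 and 1008 CPM in orexin nuclei, against 33.4, 34.4 and 37.4 CPM in the other nuclei (log2 fold change 4.10 ± 0.18, adjusted p = 1.68e-13). Every orexin sum of these 3 genes exceeded every sum of the other nuclei. Rab3b, a small GTPase of vesicle release, was higher (log2 fold change 2.67 ± 0.38, adjusted p = 9.38e-06). Vgf, a granin-like peptide precursor (1.43), Rab27b, another GTPase of vesicle release (1.13), and Ptprn, a vesicle membrane protein (1.00), were higher by less, and leaving out 1 library ended the call of Vgf (0.95 without replicate 2), of Rab27b (0.92 without replicate 3) and of Ptprn (0.96 and 0.91 without replicates 1 and 2). The second convertase Pcsk2 was not called, with 773, 485 and 591 CPM in orexin nuclei, against 598, 702 and 661 CPM in the other nuclei (log2 fold change -0.33 ± 0.18, adjusted p = 0.186). Carboxypeptidase Cpe had an adjusted p under the limit but not the fold change, and was not called (log2 fold change -0.62 ± 0.17, adjusted p = 0.0096). Cadps2, a priming factor of dense-core vesicles, was lower at 0, 18.1 and 11.9 CPM in orexin nuclei, against 76.9, 72.8 and 82.5 CPM in the other nuclei (log2 fold change -2.87 ± 0.40, adjusted p = 7.42e-06, and -3.96 without replicate 2).

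Other peptides were scarce. Of 34 listed hypothalamic peptide genes, 5 were tested and only Pdyn was called, a gene that passed the filter through its level in orexin nuclei alone. Pdyn encodes the precursor of dynorphin, known as a partner of orexin in these neurons, and stood at 17.6, 31.1 and 29.8 CPM in orexin nuclei, against 0.404, 0.279 and 0.232 CPM in the other nuclei. Its 20 UMIs lay in 13 of the 66 nuclei, with 3, 8 and 2 nuclei in replicates 1, 2 and 3. Cck was tested and not called, at 17.6, 85.5 and 35.8 CPM in orexin nuclei, against 16.7, 43.8 and 31.1 CPM in the other nuclei. Qrfp, Penk and Trh had no UMI in the orexin nuclei, and Gal had 1. The receptor Hcrtr2 was detected at 23.4, 15.5 and 17.9 CPM in orexin nuclei, against 28.7, 25.4 and 28.0 CPM in the other nuclei, a difference that was not called (log2 fold change -0.79 ± 0.39, adjusted p = 0.147), and Hcrtr1 had no UMI in orexin nuclei, against 2.39, 2.37 and 2.36 CPM in the other nuclei.

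Genes named as orexin neuron genes in other studies formed a list of 17, of which 13 were tested, 7 were higher and none was lower. Its median log2 fold change was 2.02. Pdyn, Lhx9 and Nptx2 passed the filter through their orexin levels alone, and listed genes scarce in orexin nuclei were not tested, so neither the count nor the median supports a direction of the list. Besides Pdyn, Pcsk1 and Scg2, the called genes were Nptx2, Lhx9, Rfx4 and Celf6. Nptx2, the neuronal pentraxin Narp that clusters glutamate receptors, stood at 70.2, 88.1 and 107 CPM in orexin nuclei, against 6.61, 2.38 and 3.25 CPM in the other nuclei (log2 fold change 4.41 ± 0.41, adjusted p = 2.25e-08). Celf6, an RNA-binding protein, stood at 117, 70.0 and 125 CPM in orexin nuclei, against 25.3, 16.7 and 22.9 CPM in the other nuclei (log2 fold change 2.02 ± 0.24, adjusted p = 1.25e-06). Both were above every sum of the other nuclei in each library. Ebf2, a factor known from mouse orexin neurons, had no UMI in the orexin nuclei, and Igfbp3 had 10 UMIs there, too few to be tested.

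**Figure D2:**
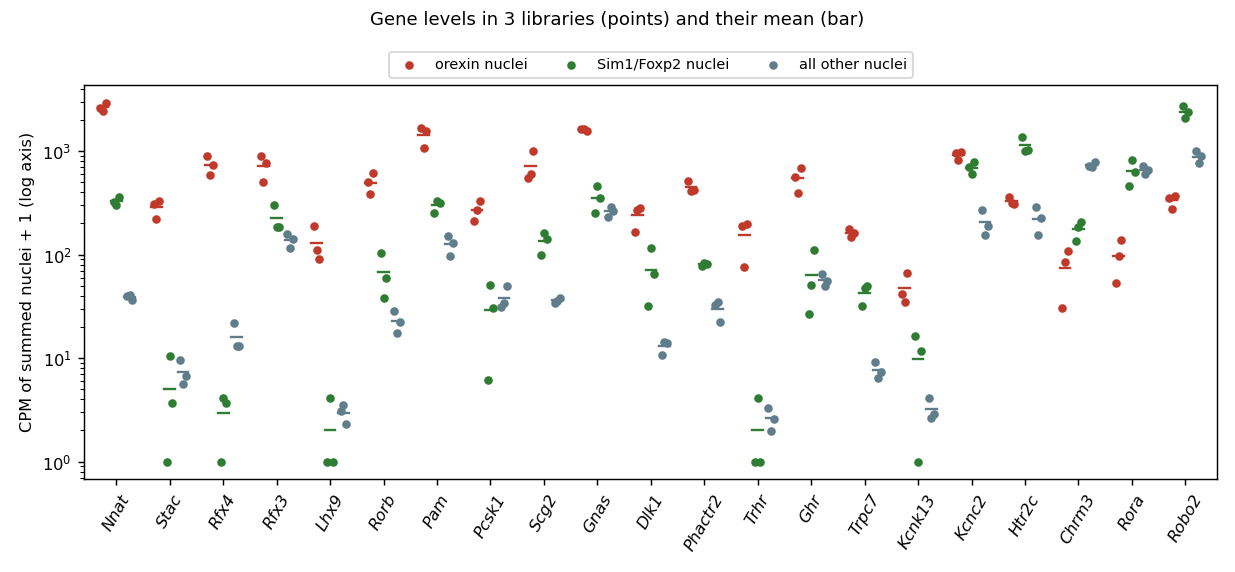
CPM plus 1 (log axis) of 21 genes over summed nuclei, with a point for each of the 3 libraries and a bar for their mean, in orexin nuclei, Sim1/Foxp2 nuclei and all other nuclei. Nnat is above 2400 CPM in each orexin sum and below 40 CPM in each sum of the other nuclei, and Chrm3, Rora and Robo2 at the right are lower in orexin nuclei than in the other nuclei.

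Imprinted genes, expressed from 1 parental allele, were higher in orexin nuclei in 8 of 26 tested of 38 listed, and none was lower. Over all tested genes 7.68% were higher and 10.3% lower. Plagl1, a gene of the rule, is listed but was not tested, and Nnat, picked as a marker in these data, is left out of these counts. The median log2 fold change was 0.42, and 18 of the 26 had higher values in 3 of 3 libraries. Without replicate 2, 11 were called higher and 1 lower. Gnas, which encodes the stimulatory G protein subunit and other products, stood at 1651, 1650.5 and 1557 CPM in orexin nuclei, against 232, 290.3 and 263 CPM in the other nuclei (log2 fold change 2.42 ± 0.15, adjusted p = 8.35e-11). Gnas overlaps the antisense gene Nespas, and without stated strand use their reads cannot be told apart. Dlk1, a transmembrane relative of Notch ligands, stood at 164, 269 and 280.3 CPM in orexin nuclei, against 9.73, 13.2 and 13.0 CPM in the other nuclei (log2 fold change 4.09 ± 0.20, adjusted p = 1.45e-12). Magel2, a gene of the Prader-Willi region, had 16 UMIs in orexin nuclei, at 29.3, 18.1 and 23.9 CPM, against 1.03, 0.750 and 0.996 CPM in the other nuclei, and passed the filter through its orexin level alone. The spread between libraries was small beside each of these differences. Phactr2, a regulator of protein phosphatase 1 (3.74), Grb10, an adaptor that dampens insulin signalling (1.92), Zdbf2 (1.86), Blcap (1.67) and Usp29 (1.39), which overlaps Zim3, were also higher. Blcap, counted among the 8, overlaps Nnat on the opposite strand, and reads of Nnat could add to it if counting did not use strand. Meg3, an abundant noncoding imprinted RNA, was not called, at 8487, 10309.6 and 10569.6 CPM in orexin nuclei, against 7483, 9529 and 7657 CPM in the other nuclei, and Peg3 and Ndn were not called either (0.41 and 1.06).

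Transcription factors divided the groups in both directions. Of 79 listed factors of the hypothalamus and of the projection classes, 41 were tested, 10 were higher and 23 were lower, with a median log2 fold change of -1.43. Rfx4 and Rfx3, relatives of the rule gene Rfx2, were both higher: Rfx4 stood at 895, 593 and 734 CPM in orexin nuclei, against 20.7, 12.1 and 12.1 CPM in the other nuclei (log2 fold change 5.44 ± 0.17, adjusted p = 1.09e-15), and Rfx3 at 895, 505 and 763 CPM in orexin nuclei, against 159, 116 and 139 CPM in the other nuclei (log2 fold change 2.14 ± 0.16, adjusted p = 5.78e-10). Lhx9, a LIM homeodomain factor known to act in orexin neuron development, stood at 187, 109 and 89.5 CPM in orexin nuclei, against 2.09, 2.51 and 1.29 CPM in the other nuclei (log2 fold change 5.76 ± 0.40, adjusted p = 2.66e-10). Its relative Lhx2 was higher as well (log2 fold change 4.21 ± 0.50, adjusted p = 1.03e-06). Lhx9 and Lhx2 passed the filter through their orexin levels alone, so their p is no support for the direction. Rorb, an orphan nuclear receptor, stood at 497, 383 and 608 CPM in orexin nuclei, against 27.6, 16.5 and 21.1 CPM in the other nuclei (log2 fold change 4.31 ± 0.18, adjusted p = 9.07e-14), while its relative Rora was lower, at 52.7, 95.9 and 137 CPM in orexin nuclei, against 713, 601 and 653 CPM in the other nuclei (log2 fold change -2.99 ± 0.22, adjusted p = 6.32e-10). The pair thus differed in opposite directions. Tshz2 (3.35) and Zfhx4 (2.77) were also among the higher factors. Hmx2 had 18 UMIs at 29.3, 20.7 and 29.8 CPM in orexin nuclei, against 0.110, 0.221 and 0.133 CPM in the other nuclei, and passed the filter through its orexin level alone. Its relative Hmx3 had 14 UMIs there and was not tested, and Nkx2-2, a ventral patterning factor, had 20 UMIs at 23.4, 28.5 and 29.8 CPM in orexin nuclei, against 0.415 to 0.551 CPM in the other nuclei, and passed the filter in the same way. Hmx2 overlaps Fgfr2 and Nkx2-2 overlaps its antisense gene. Nkx2-1 had no UMI in orexin nuclei.

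The lower factors included those of the cortex. Of the 8 tested corticospinal markers, 3 passed the filter through the other nuclei alone. All 8 were lower in orexin nuclei than in the other nuclei, a mixture with many cortical nuclei. Among them was Bcl11b at 5.85, 15.5 and 35.8 CPM in orexin nuclei, against 113, 172 and 151 CPM in the other nuclei (log2 fold change -3.31 ± 0.32, adjusted p = 5.50e-08). Fezf2, the factor of subcerebral projection neurons, had 3 UMIs in orexin nuclei and a 5.10-fold lower level than the other nuclei (95% counting interval 1.74 to 24.8), and lost its call without replicate 2. Of 16 tested immediate-early and clock genes, 1 was higher and 5 were lower. Among clock genes, Npas2 (-3.53) was lower, and Per3 was lower (-2.06) but not called without replicate 2. Fos, the activity marker, had 6 UMIs at 0, 2.59 and 29.8 CPM in orexin nuclei, against 1.07, 1.97 and 2.99 CPM in the other nuclei, and was not tested.

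Receptors for hormones and peptides gave 3 higher and 3 lower among 15 tested of 47 listed, beside 7.68% and 10.3% over all tested genes. Trhr, the receptor of thyrotropin-releasing hormone, stood at 187, 75.1 and 197 CPM in orexin nuclei, against 2.31, 0.985 and 1.56 CPM in the other nuclei (log2 fold change 6.31 ± 0.39, adjusted p = 5.03e-11). Trhr passed the filter through its orexin level alone, so its p is no support for the direction. A Trhr UMI was found in 42 of the 66 orexin nuclei, while the enzyme Trhde had 2 UMIs in all of them together. Ghr, the growth hormone receptor, stood at 562, 396 and 692 CPM in orexin nuclei, against 64.6, 49.0 and 55.2 CPM in the other nuclei (log2 fold change 3.04 ± 0.17, adjusted p = 1.12e-11). The receptor of the peptide PACAP, Adcyap1r1, was higher by less (log2 fold change 1.33 ± 0.45, adjusted p = 0.0332), a call that was lost whichever library was left out (1.39, 1.09 and 1.39 without replicates 1, 2 and 3). Thrb, the thyroid hormone receptor beta, was lower at 146, 197 and 125 CPM in orexin nuclei, against 557, 589 and 593 CPM in the other nuclei (log2 fold change -2.07 ± 0.18, adjusted p = 1.27e-08), and the opioid receptor Oprm1 was called at the limit of the fold change but had no call whichever library was left out (log2 fold changes of -0.85, -1.24 and -1.07 without replicates 1, 2 and 3). Lepr, the leptin receptor, had 2 UMIs in orexin nuclei and a 6.49-fold lower level than the other nuclei (95% counting interval 1.80 to 53.6), and it was not called by DESeq2's Wald test or with the Hcrt limit at 500 CPM (log2 fold change -1.22 there). The insulin receptor Insr was not called, at 87.8, 82.9 and 131 CPM in orexin nuclei, against 97.0, 94.1 and 96.6 CPM in the other nuclei.

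Receptors of monoamines and acetylcholine were lower in most called cases. Of 39 listed with those of histamine and adenosine, 10 were tested, 1 was higher and 7 were lower, with a median log2 fold change of -2.53. Of the 7 lower genes, 3 passed the filter through the other nuclei alone. Neither the count nor the median therefore supports a direction of the list. The higher gene was Adra1b, the alpha-1B adrenoceptor, at 52.7, 46.6 and 35.8 CPM in orexin nuclei, against 19.6, 15.0 and 15.4 CPM in the other nuclei (log2 fold change 1.25 ± 0.34, adjusted p = 0.00854), a call lost without replicate 2 (1.14). Its relative Adra1a was lower, at 5.85, 13.0 and 23.9 CPM in orexin nuclei, against 70.0, 74.8 and 68.1 CPM in the other nuclei (log2 fold change -2.60 ± 0.37, adjusted p = 8.87e-06), so the 2 alpha-1 receptors differed in opposite directions. Chrm3, a muscarinic acetylcholine receptor, was lower at 29.3, 82.9 and 107 CPM in orexin nuclei, against 710.3, 709 and 778 CPM in the other nuclei (log2 fold change -3.52 ± 0.23, adjusted p = 1.10e-10). Htr2c, a serotonin receptor, was not called, at 363, 314 and 304 CPM in orexin nuclei, against 285, 153 and 227 CPM in the other nuclei. Adora1 and Htr1a had no UMI in orexin nuclei, against 14.4, 16.9 and 15.5 CPM of Adora1 and 0.220, 0.103 and 0.0830 CPM of Htr1a in the other nuclei.

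Potassium channels were lower in most called cases. Among voltage-gated and related channels, 24 of 27 listed were tested, 2 were higher and 13 were lower, with a median log2 fold change of -1.22. Kcnc2, the fast delayed rectifier Kv3.2, was higher at 954, 821 and 990.2 CPM in orexin nuclei, against 270.4, 155 and 188 CPM in the other nuclei (log2 fold change 2.00 ± 0.16, adjusted p = 1.82e-09). Kcnn3, a small-conductance calcium-activated channel, was higher at 76.1, 46.6 and 47.7 CPM in orexin nuclei, against 18.6, 13.6 and 14.2 CPM in the other nuclei (log2 fold change 1.64 ± 0.33, adjusted p = 5.94e-04), while Kcnn2 of the same family was lower at 11.7, 57.0 and 113 CPM in orexin nuclei, against 409, 543 and 572 CPM in the other nuclei (log2 fold change -3.36 ± 0.26, adjusted p = 1.52e-09). Kcnd2, the A-type channel Kv4.2, was lower at 164, 209.9 and 125 CPM in orexin nuclei, against 1505, 1176 and 1382 CPM in the other nuclei (log2 fold change -3.17 ± 0.20, adjusted p = 6.17e-11). The paired members of the Kcnn family thus went opposite ways. Of inward rectifiers, KATP subunits and two-pore channels, 9 were tested, 1 was higher and 2 were lower. The shares over all tested genes were 7.68% and 10.3%. Kcnk13, a two-pore leak channel, was higher at 41.0, 33.7 and 65.6 CPM in orexin nuclei, against 3.08, 1.65 and 1.89 CPM in the other nuclei (log2 fold change 4.21 ± 0.47, adjusted p = 4.04e-07), and the G protein-gated Kcnj3 and Kcnj6 were lower (-1.47 and -2.17). Kcnk9, which encodes the acid-sensitive leak channel TASK-3, was not called, at 23.4, 33.7 and 29.8 CPM in orexin nuclei, against 22.8, 24.0 and 21.2 CPM in the other nuclei.

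Cation channels split by member. Of 29 tested sodium, calcium, HCN and TRPC channel genes, 4 were higher and 9 lower, beside 7.68% and 10.3% over all tested genes. Trpc7 was higher at 176, 148 and 161 CPM in orexin nuclei, against 8.08, 5.35 and 6.36 CPM in the other nuclei (log2 fold change 4.42 ± 0.28, adjusted p = 8.05e-11), whereas Trpc4 and Trpc5 were lower (-3.65 and -2.46, and -4.45 and -3.11 without replicate 3). The sodium channel genes Scn9a and Scn3a were higher, Scn9a at 497, 381 and 280.3 CPM in orexin nuclei, against 102, 89.5 and 112 CPM in the other nuclei (log2 fold change 1.72 ± 0.18, adjusted p = 2.03e-07), and Scn3a with a log2 fold change of 1.69. By contrast Scn1a and Scn8a, sodium channels of the adult brain, were lower (-1.50 and -1.47).

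**Figure D3:**
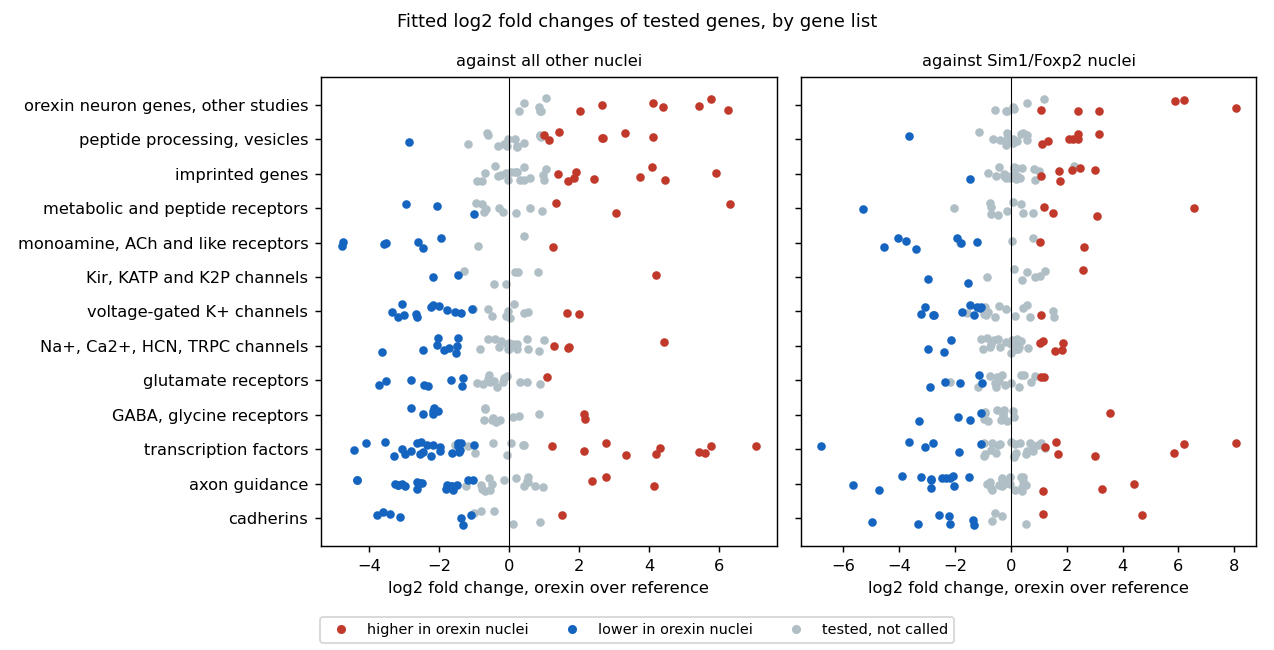
Fitted log2 fold changes of the tested genes of 13 lists, 1 point per gene, for orexin nuclei over all other nuclei (left) and over Sim1/Foxp2 nuclei (right). Coloured points passed the test, red higher and blue lower in orexin nuclei, and points of genes with 0 to 3 UMIs in 1 group depend on the prior count of the fit. At the left the top row has 7 red points and no blue one, and the axon guidance row has 3 red and 19 blue points.

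Fast transmission genes were thinly sampled. Slc17a6, the vesicular glutamate transporter VGLUT2 that orexin neurons are known to use, stood at 135, 72.5 and 47.7 CPM in orexin nuclei, against 47.7, 32.4 and 40.8 CPM in the other nuclei, and was not called (log2 fold change 0.86 ± 0.25, adjusted p = 0.0147). Slc17a7, the transporter of cortical neurons, was lower (log2 fold change -1.37 ± 0.30, adjusted p = 0.0014), but was not called with no replicate block (-1.18). Its log2 fold change was -2.35 without replicate 2, which held the highest of its 3 orexin sums. The GABA enzymes Gad1 and Gad2 had 5 and 11 UMIs and were not tested. Of glutamate receptor genes, 22 were tested, 1 was higher and 8 were lower, with a median log2 fold change of -0.59. Grik1, a kainate receptor, was higher (log2 fold change 1.08 ± 0.16, adjusted p = 2.01e-05) but not called without replicate 2 (0.93). The Grik1 call was also lost against other nuclei matched in depth (0.54) and with the Hcrt limit at 500 CPM (0.91). Grin2a, the NMDA receptor subunit of mature synapses, was lower at 41.0, 124 and 107 CPM in orexin nuclei, against 949, 1192 and 1019 CPM in the other nuclei (log2 fold change -3.73 ± 0.22, adjusted p = 2.12e-11). Of GABA and glycine receptor genes, 18 were tested, 2 were higher and 6 were lower. Glra3, a glycine receptor subunit, was higher at 70.2, 70.0 and 65.6 CPM in orexin nuclei, against 16.6, 11.3 and 14.1 CPM in the other nuclei (log2 fold change 2.13 ± 0.32, adjusted p = 1.75e-05), and Gabrg1, a GABA-A receptor subunit, was higher as well (log2 fold change 2.17 ± 0.43, adjusted p = 5.48e-04) but not called without replicate 2 (1.81). Gabrg1 passed the filter through its orexin level alone, so its p is no support for the direction.

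Genes of axon guidance and adhesion were lower in most called cases. Of 43 listed guidance genes, 37 were tested, 3 were higher and 19 were lower, with a median log2 fold change of -1.17. The higher genes were Epha3, an ephrin receptor, at 234, 161 and 262 CPM in orexin nuclei, against 37.7, 32.4 and 36.8 CPM in the other nuclei (log2 fold change 2.36 ± 0.20, adjusted p = 4.36e-09), Sema6a, a transmembrane semaphorin (log2 fold change 2.78 ± 0.24, adjusted p = 6.71e-09), and Ntn1, the cue netrin-1, with 25 UMIs (log2 fold change 4.15 ± 0.51, adjusted p = 1.29e-06). Dcc, the receptor of netrin-1, was lower at 351, 246 and 429 CPM in orexin nuclei, against 1138, 582 and 815 CPM in the other nuclei (log2 fold change -1.50 ± 0.17, adjusted p = 5.82e-07). The SLIT receptors Robo1 and Robo2 were lower (-1.62 and -1.63). Of 13 cadherins, 1 was higher and 7 were lower, and the higher one was Cdh9 (log2 fold change 1.50 ± 0.23, adjusted p = 2.52e-05), which was not called against other nuclei matched in depth. Of 14 tested genes of neurofilaments and large axons, none was higher and 4 were lower, or 2 without replicate 3, among them Syt2, the calcium sensor of fast synapses, with 4 UMIs (log2 fold change -3.92 ± 0.46, adjusted p = 7.13e-07, and -4.71 without replicate 2). Syt2 passed the filter through the other nuclei alone, so its p is no support for the direction. Among 18 tested growth-associated genes, 1 was higher and 1 lower, shares no larger than the 7.68% and 10.3% over all tested genes. The lower one was Ntrk3, the neurotrophin-3 receptor (log2 fold change -2.71 ± 0.21, adjusted p = 1.25e-09), and the higher one, Sox11 (1.21), lost its call without replicate 2 (0.44). Gap43, the growth cone protein, stayed just under the fold change limit and was not called (log2 fold change 0.99 ± 0.16, adjusted p = 5.68e-05).

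A second comparison set the orexin nuclei against another hypothalamic type of the same libraries. Its nuclei had at least 2 UMIs of Sim1, a factor of the paraventricular nucleus, and Foxp2 at 300 CPM or more, and numbered 93, with 32, 24 and 37 in replicates 1, 2 and 3. They are called the Sim1/Foxp2 nuclei. Oxt, the oxytocin gene, stood at 0, 15.5 and 11.9 CPM in orexin nuclei, against 529, 203 and 713 CPM in Sim1/Foxp2 nuclei. Their median depth was 5945.5, 12049 and 8687 UMIs, close to that of the orexin nuclei. By the same test 381 of 9978 genes were higher in orexin nuclei (3.82%) and 495 were lower (4.96%), Sim1, Foxp2 and the rule genes being left out. Predicted names made up 54 of the higher and 72 of the lower genes. These counts rested on replicate 2, without which 132 genes were higher and 177 lower, and were smaller with DESeq2's Wald test (160 and 237). Without replicate 3 they were 237 and 308. The filter acted as in the first comparison. Of the 381 higher genes, 122 had a mean under 10 CPM in Sim1/Foxp2 nuclei, and 114 of these were also called with no filter on low counts. Of the 495 lower genes, 166 had such a low mean in orexin nuclei. The p of such a gene is again no support for the direction. List counts of this comparison stand beside 3.82% higher and 4.96% lower over all tested genes.

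Several genes that led the first comparison also led the second. The libraries compared are the same, so the orexin sums are shared between the comparisons. Nnat stood at 319, 302 and 359 CPM in Sim1/Foxp2 nuclei and Stac at 0, 9.36 and 2.68 CPM, below each orexin sum, and Stac had 4 UMIs there. Rfx4 had 505 UMIs in orexin nuclei and 2 in Sim1/Foxp2 nuclei, a 310-fold higher level in orexin nuclei (95% counting interval 85.3 to 2563; adjusted p = 2.62e-17). Trhr had 94 UMIs in orexin nuclei and 1 in Sim1/Foxp2 nuclei (115-fold, 20.2 to 4600; adjusted p = 1.99e-10). Lhx9 had 89 UMIs in orexin nuclei and 1 in Sim1/Foxp2 nuclei (109-fold, 19.1 to 4358; adjusted p = 1.14e-09). These intervals are wide because the lower group had 1 or 2 UMIs. Rfx4, Trhr and Lhx9 passed the filter here through their orexin levels alone, so their p is no support for the direction. Nptx2 (78.5-fold), Slc25a48 (66.8-fold, not called without replicate 2), Arhgap28 (25.7-fold) and Csta2 (84.6-fold) were likewise higher with 1 to 3 UMIs in Sim1/Foxp2 nuclei. Sox1ot and Tmbim7 had no UMI there, and their levels were at least 25.3-fold and 21.7-fold higher in orexin nuclei, taking 3 UMIs over the group as the floor. Tmbim7 was not called without replicate 2.

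Further genes stood among the 15 largest fitted rises of the second comparison, and each of them was also called in the first. Lypd6, a membrane-anchored protein that binds nicotinic receptors, stood at 304, 176 and 209 CPM in orexin nuclei and had 1 UMI in Sim1/Foxp2 nuclei (190-fold, 95% counting interval 33.6 to 7554; adjusted p = 7.06e-13). Lama3, a laminin chain, stood at 269, 139.9 and 125 CPM in orexin nuclei and had 2 UMIs in Sim1/Foxp2 nuclei (74.2-fold, 20.1 to 620; adjusted p = 6.76e-11). Cftr, the chloride channel of cystic fibrosis, stood at 70.2, 54.4 and 53.7 CPM in orexin nuclei with 1 UMI in Sim1/Foxp2 nuclei (51.5-fold, 8.75 to 2082; adjusted p = 4.24e-06). Diaph3, a formin (33.5-fold), and Gnasas1, the antisense RNA of the Gnas locus named Nespas above (37.6-fold), had 3 UMIs each in Sim1/Foxp2 nuclei. Gnasas1 overlaps Gnas, so its reads cannot be told apart from those of Gnas without stated strand use. Each of the 5 was called with every orexin sum above every Sim1/Foxp2 sum. All of them passed the filter here through their orexin levels alone, so their p is no support for the direction. Whether these fold changes differed between the 2 comparisons was not tested.

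Genes of peptide production also differed between the 2 hypothalamic types. Of 23 tested genes of peptide processing and dense-core vesicles, 7 were higher and 1 was lower in orexin nuclei, with a median log2 fold change of 0.20 beside 0.00 over all tested genes, and without replicate 2 the counts were 3 and 1. Pcsk1 was at 5.14, 49.9 and 29.5 CPM in Sim1/Foxp2 nuclei, below each orexin sum (log2 fold change 3.15 ± 0.29, adjusted p = 3.23e-10). Pam was at 252, 331 and 314 CPM in Sim1/Foxp2 nuclei (log2 fold change 2.22 ± 0.19, adjusted p = 6.86e-11) and Scg2 at 97.7, 162 and 142 CPM (log2 fold change 2.40 ± 0.21, adjusted p = 5.31e-11). Vgf was higher in orexin nuclei too (log2 fold change 2.08 ± 0.46, adjusted p = 0.00148) but not called without replicate 2, and the Pcsk1 difference was 3.77 without it. Of 7 tested peptide genes 3 were lower and none higher, with 1 lower without replicate 2. Oxt was lower in orexin nuclei (log2 fold change -5.11 ± 0.37, adjusted p = 6.76e-13, and -6.60 without replicate 2), Avp, the vasopressin gene, had 1 UMI in orexin nuclei and 39 in Sim1/Foxp2 nuclei, and Penk, the enkephalin precursor, had none in orexin nuclei and 30 in Sim1/Foxp2 nuclei, at least 8.16-fold lower. Avp and Penk were not called without replicate 2. Oxt, Avp and Penk passed the filter through their Sim1/Foxp2 levels alone, so neither their p nor this count supports a direction. Pdyn was not called, at 17.6, 31.1 and 29.8 CPM in orexin nuclei, against 15.4, 12.5 and 8.04 CPM in Sim1/Foxp2 nuclei.

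Imprinted genes other than Nnat gave 5 higher and 1 lower among 27 tested, beside 3.82% and 4.96% over all tested genes. Gnas stood at 252, 458 and 348 CPM in Sim1/Foxp2 nuclei, below each orexin sum (log2 fold change 2.20 ± 0.19, adjusted p = 4.11e-11), and Phactr2 (log2 fold change 2.47 ± 0.21, adjusted p = 5.45e-11), Dlk1 (log2 fold change 1.74 ± 0.25, adjusted p = 2.07e-06) and Zdbf2 (log2 fold change 1.76 ± 0.28, adjusted p = 1.88e-05) were higher in orexin nuclei as well. Grb10, Usp29 and Blcap, called in the first comparison, were not called here (0.32, 0.38 and 1.01). Of transcription factors, 7 of 35 tested were higher and 6 lower, or 6 and 1 without replicate 2. Rorb stood at 103, 37.4 and 59.0 CPM in Sim1/Foxp2 nuclei (adjusted p = 6.36e-12) and Rora at 463, 826 and 625 CPM (log2 fold change -2.79 ± 0.23, adjusted p = 1.23e-11), the same opposite pair as before. Rfx3 was higher in orexin nuclei (log2 fold change 1.70 ± 0.19, adjusted p = 1.75e-08), and Tshz2 and Lhx2 were not called (0.80 and 1.22). Nkx2-2 was not called, with 23.4, 28.5 and 29.8 CPM in orexin nuclei and 25.7, 24.9 and 24.1 CPM in Sim1/Foxp2 nuclei. Otp had no UMI in orexin nuclei and 47 in Sim1/Foxp2 nuclei (at least 12.8-fold lower), a call lost without replicate 2. Of the corticospinal markers 4 were tested here, all 4 with positive fold changes, and 1 was called. It was Tox, at 164, 205 and 209 CPM in orexin nuclei, against 36.0, 31.2 and 64.3 CPM in Sim1/Foxp2 nuclei (log2 fold change 2.15 ± 0.27, adjusted p = 2.59e-07). The 10 markers summed to 234, 443 and 441 CPM in orexin nuclei, against 103, 215 and 222 CPM in Sim1/Foxp2 nuclei.

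Receptors and channels differed by member. Ghr stood at 25.7, 49.9 and 109.9 CPM in Sim1/Foxp2 nuclei, below each orexin sum (log2 fold change 3.09 ± 0.24, adjusted p = 4.16e-12), and the insulin-like growth factor receptor Igf1r was higher in orexin nuclei (log2 fold change 1.19 ± 0.19, adjusted p = 2.32e-05). Prlr, the prolactin receptor, had 1 UMI in orexin nuclei, in replicate 2, and 62 in Sim1/Foxp2 nuclei (50.6-fold lower in orexin nuclei, 8.75 to 2029). Htr2c was lower, at 363, 314 and 304 CPM in orexin nuclei, against 1378, 1007 and 1024 CPM in Sim1/Foxp2 nuclei (log2 fold change -1.78 ± 0.18, adjusted p = 2.68e-09), and so was the muscarinic receptor Chrm2, at 17.6, 10.4 and 65.6 CPM in orexin nuclei, against 247, 315 and 257 CPM in Sim1/Foxp2 nuclei (log2 fold change -3.40 ± 0.34, adjusted p = 1.59e-09, -2.59 without replicate 2 and -4.46 without replicate 3). Adra1b was higher in orexin nuclei (log2 fold change 2.61 ± 0.59, adjusted p = 0.00176) but again not called without replicate 2. Grik1, higher in the first comparison, was lower here (log2 fold change -1.04) but not called without replicate 1 (-0.94). Trpc7 was higher in orexin nuclei, with 30.8, 46.8 and 48.2 CPM in Sim1/Foxp2 nuclei (log2 fold change 1.88 ± 0.28, adjusted p = 5.39e-06). Kcnd2 was lower at 164, 209.9 and 125 CPM in orexin nuclei, against 1655, 1179 and 1611 CPM in Sim1/Foxp2 nuclei (log2 fold change -3.06 ± 0.22, adjusted p = 5.16e-13). Of 25 tested voltage-gated and related potassium channels, 1 was higher and 10 were lower, the lower count being 4 without replicate 2. Kcnc2, Scn9a and Scn3a were not called (0.42, 0.37 and 0.28), and Kcnk13 was called (log2 fold change 2.58 ± 0.61, adjusted p = 0.00291) but not without replicate 2 or 3. Adra1b and Kcnk13 passed the filter here through their orexin levels alone, so their p is no support for the direction.

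The largest falls against the Sim1/Foxp2 nuclei were steep. Adarb2, an RNA-editing enzyme relative, stood at 17.6, 15.5 and 5.96 CPM in orexin nuclei, against 2786, 2258 and 2386 CPM in Sim1/Foxp2 nuclei (log2 fold change -7.41 ± 0.30, adjusted p = 4.74e-19). Pld5, of the phospholipase D family, stood at 0, 13.0 and 5.96 CPM in orexin nuclei, against 632, 515 and 579 CPM in Sim1/Foxp2 nuclei (log2 fold change -6.01 ± 0.35, adjusted p = 5.04e-15, and -7.44 without replicate 2). Kctd8, an auxiliary subunit of GABA-B receptors, stood at 11.7, 5.18 and 5.96 CPM in orexin nuclei, against 179.9, 427 and 458 CPM in Sim1/Foxp2 nuclei (log2 fold change -5.64 ± 0.37, adjusted p = 1.33e-13). Each orexin sum of these 3 genes was below each Sim1/Foxp2 sum. Pld5 and Kctd8 passed the filter through their Sim1/Foxp2 levels alone, so their p is no support for the direction. Dock10, a regulator of small GTPases, had no UMI in orexin nuclei and 147 in Sim1/Foxp2 nuclei, at least 40.0-fold lower. Reln had 3 UMIs in orexin nuclei and 834 in Sim1/Foxp2 nuclei (227-fold lower, 77.3 to 1102), and Trhde had 2 against 402 (164-fold lower, 45.1 to 1358). Pcdh10, Fign and Slit1 had 1, 2 and 1 UMIs in orexin nuclei. Guidance genes gave 3 higher and 13 lower among 35 tested, with Robo2 at 351, 277 and 369.8 CPM in orexin nuclei, against 2755, 2071 and 2399 CPM in Sim1/Foxp2 nuclei (log2 fold change -2.85 ± 0.19, adjusted p = 1.38e-13), and Epha3 higher in orexin nuclei (log2 fold change 3.26 ± 0.33, adjusted p = 1.68e-09). Of 13 cadherins, 2 were higher and 7 lower, or 1 and 4 without replicate 2.

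At equal depth the shares of nuclei with a UMI gave the same picture per nucleus. After thinning to 3000 UMIs, which left out 1, 0 and 0 orexin nuclei, 2, 0 and 1 Sim1/Foxp2 nuclei and 228, 147 and 41 other nuclei of replicates 1, 2 and 3 as too shallow, 93.8% of orexin nuclei, 51.1% of Sim1/Foxp2 nuclei and 10.6% of the other nuclei had a Nnat UMI. For Gnas the shares were 98.5% of orexin nuclei, 63.3% of Sim1/Foxp2 nuclei and 50.6% of the other nuclei, and for Pam 93.8% of orexin nuclei, 53.3% of Sim1/Foxp2 nuclei and 28.7% of the other nuclei. Both genes were thus found in nearly every orexin nucleus. Scg2 was found in 84.6% of orexin nuclei and 34.4% of Sim1/Foxp2 nuclei, Rfx4 in 76.9% of orexin nuclei, 0% of Sim1/Foxp2 nuclei and 3.79% of the other nuclei and Ghr in 70.8% of orexin nuclei, 14.4% of Sim1/Foxp2 nuclei and 14.4% of the other nuclei. Trhr, Lhx9 and Nptx2 were found in fewer than 1 in 2 orexin nuclei: Trhr in 43.1% of orexin nuclei, 0% of Sim1/Foxp2 nuclei and 0.550% of the other nuclei, Lhx9 in 30.8% of orexin nuclei, 0% of Sim1/Foxp2 nuclei and 0.749% of the other nuclei and Nptx2 in 27.7% of orexin nuclei, 0% of Sim1/Foxp2 nuclei and 1.37% of the other nuclei. These shares were above those of both other groups, where no thinned UMI in 90 Sim1/Foxp2 nuclei allows a share of up to 3.33%. For Slc17a6 the shares were 16.9% of orexin nuclei, 27.8% of Sim1/Foxp2 nuclei and 13.5% of the other nuclei. Unthinned, 56.1% of orexin nuclei had a Slc17a6 UMI, against 32.6% of the other nuclei and 53.8% of the Sim1/Foxp2 nuclei. Lhx9 and Trhr had a UMI in 62.1% and 63.6% of orexin nuclei before thinning. A nucleus without a UMI of a gene at this depth may still express it.

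**Figure D4:**
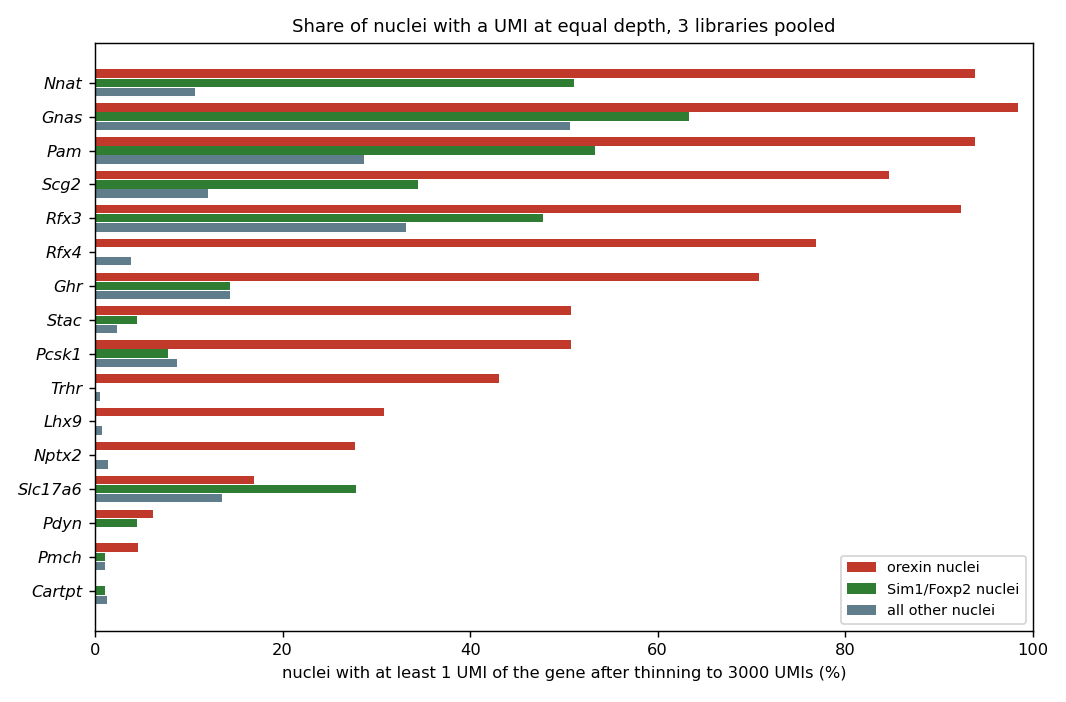
Percent of nuclei with at least 1 UMI of each of 16 genes after thinning every nucleus to 3000 UMIs, the 3 libraries pooled, in orexin nuclei (top bar of each gene), Sim1/Foxp2 nuclei and all other nuclei. Nnat reaches 93.8% of orexin nuclei, 51.1% of Sim1/Foxp2 nuclei and 10.6% of the other nuclei.

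Among themselves the orexin nuclei varied widely in Hcrt. In replicate 1 the level per nucleus ran from 1291 to 10101 CPM with a median of 4143 CPM, in replicate 2 from 1010 to 7086 CPM with a median of 2428 CPM, and in replicate 3 from 1262 to 10902 CPM with a median of 3787 CPM. The lower end is set by the rule. Nnat also varied widely, and 1 nucleus of replicate 2 had none. Its median per nucleus was 2418, 2112 and 3432 CPM, its lowest value 186, 0 and 453 CPM, and its highest 9596, 8721 and 6766 CPM in replicates 1, 2 and 3. Stac had a UMI in 83.3%, 70.4% and 66.7% of nuclei, and Trhr in 66.7%, 48.1% and 86.7%. Deeper nuclei had lower Hcrt levels, with a Spearman rho between UMIs and Hcrt CPM of -0.50, -0.39 and -0.37 and a Pearson r of -0.46, -0.44 and -0.49 over the 24, 27 and 15 nuclei. These measures share the depth, which is the divisor of CPM, and the Hcrt limit. Hcrt and Nnat levels had a rho of 0.22, 0.51 and -0.10 and a Pearson r of 0.39, 0.61 and 0.23, and Hcrt and Stac levels a rho of -0.17, 0.10 and -0.01 and an r of -0.27, 0.02 and 0.16. The nuclei of a library share its preparation, and no p is given for these values.

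**Figure D5:**
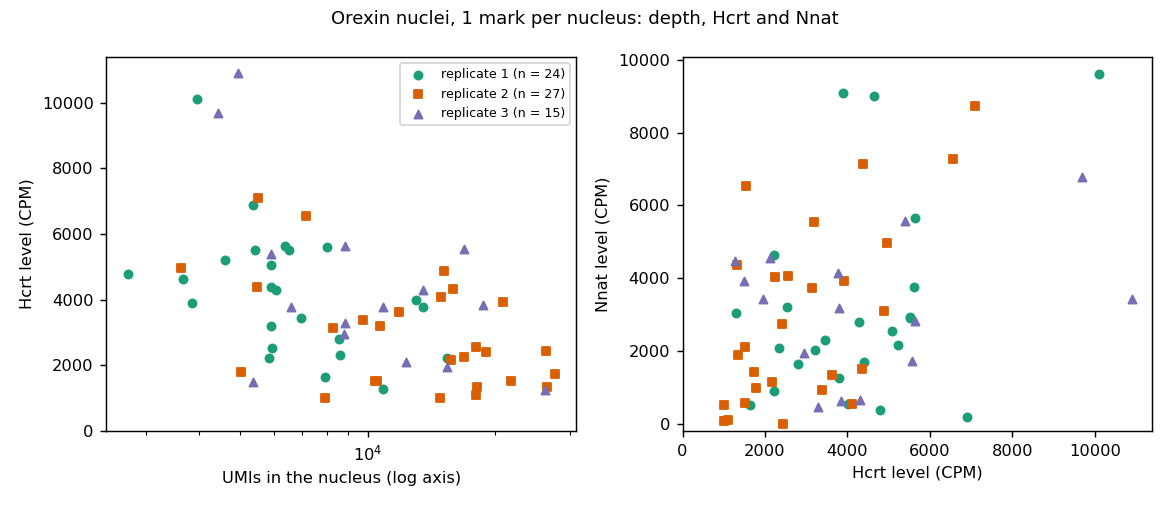
Left, Hcrt level (CPM) against the UMIs of the nucleus (log axis). Right, Nnat level (CPM) against Hcrt level (CPM). Each mark is 1 of the 66 orexin nuclei, shaped by library. The highest Hcrt level, 10902 CPM, is in a nucleus of replicate 3, and Nnat reaches its highest value, 9596 CPM, in replicate 1.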

How the data were processed

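Gene counts (UMIs per gene and barcode, 32285 genes) of 2710, 11094 and 3713 barcodes, totalling 27435221, 74287112 and 60490064 UMIs in replicates 1, 2 and 3, were deposited by the authors without normalization. The counts were made with Cell Ranger 6.1.1 per the file headers, while the submitters' processing notes name Cell Ranger 7.0.1 and build mm10. How introns and strand were treated and how barcodes were selected is not given in the sources used here, and reads of overlapping genes cannot be told apart. The limits of 1000 genes and 5% mitochondrial UMIs left 9027 barcodes, and 8490 were left out, of which 2 in replicate 2 would have met both conditions for an orexin nucleus. Scrublet (scanpy 1.11.5) marked 15, 72 and 57 barcodes, which were kept in the main result.

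UMIs were summed per library and group. edgeR 4.0.16 in R 4.3.3 fitted the sums with TMM scaling and the library as a block, since both sums of a library share its nuclei. Genes needed a mean of 10 CPM over the 6 sums, and the rule genes (with Sim1 and Foxp2 in the second comparison) were not tested. P-values measure the spread of the difference within libraries over 3 libraries, not the spread between libraries. Each gene has 2 residual degrees of freedom, and the fit borrows its spread from the other genes. The fit was also run on simulated counts, whose set spread was smaller than the fitted spread of these data. That run is therefore no evidence on errors at the spread of these data. DESeq2 1.42.0 served as an alternative. Ratios of genes with 1 to 3 UMIs carry 95% counting intervals, and a count of 0 was set to a floor of 3 UMIs over the group.

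The orexin nuclei, the gene lists and the named genes were chosen with earlier results of these data known. The rule for named genes took, in each comparison, the 15 largest rises and 10 largest falls among called genes with the same direction in 3 of 3 libraries and at least 50 CPM in the higher group, up to 4 called genes of each list, and genes defining other cell types. Further list genes were named for their known role after their values were seen. Some genes that the rule would name are not reported here.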

Additional observations from a re-analysis of the deposited data

How the results depend on the processing

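The comparison with the other nuclei gave 744 higher and 996 lower genes, and every alternative tried stayed within 1.5 times of both counts, at 510 to 763 higher and 765 to 1414 lower, the lowest of both without replicate 2. The genes called changed more than their number. Without replicate 2, 443 of the 744 higher and 688 of the 996 lower genes were called again. Against other nuclei matched in depth, 538 and 730 of them were called again. The fit with no replicate block gave 740 higher and 940 lower genes. Without a filter on low counts the median log2 fold change of all genes moved to -0.87, and with filterByExpr to -0.19. Limits on Hcrt, on the second condition and on genes per nucleus changed the number of orexin nuclei to between 51 and 78, beside 66.

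The comparison with the Sim1/Foxp2 nuclei was less stable. Its 381 higher and 495 lower genes became 160 and 237 with DESeq2's Wald test, and 132 to 381 and 177 to 452 with 1 library left out, the lowest without replicate 2. Of the main calls, 126 higher and 171 lower genes were shared with the fit without replicate 2. With no replicate block the counts were 338 and 450, and filterByExpr gave 254 and 357. The cause of these losses was not tested, though a fit on 2 libraries has fewer sums and replicate 2 was the deepest.

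Shares of nuclei with a UMI depended on depth. Thinned to 3000 UMIs, the mean share of cortical nuclei with an Hcrt UMI was 12.5% (56.0% unthinned), and the share of orexin nuclei was 30.8% for Lhx9 (62.1% unthinned), 43.1% for Trhr (63.6%), 6.15% for Pdyn (19.7%) and 16.9% for Slc17a6 (56.1%). For a gene with 0 UMIs in the orexin nuclei, levels of up to 4.14 CPM are allowed by the depth.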
